A study of Mus musculus with 36 samples.

Results

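The strain difference described here is that between DBA/2J and AKR/J in whole brain of mice left undisturbed in their home cages. It was measured on the 3 arrays titled as DBA/2J brain controls and the 3 titled as AKR/J brain controls, which are 6 of the 36 arrays of the study, and as the difference of the 2 group means for each of 45037 probe sets. In the study, sleep was prevented for the first 6 h of the light phase, and such mice were compared with home-cage controls in brain and liver of the inbred strains DBA/2J, AKR/J and C57BL/6J. The mice were males aged 12 to 13 weeks, and the controls were killed at Zeitgeber time (ZT) 6, which is 6 h after lights came on. Each array carried biotin-labelled cRNA from equal amounts of RNA of 3 mice, so a group of 3 arrays held 9 mice, and the spread between arrays is that between pools. In a whole organ, fewer cells of a type and less RNA per cell cannot be told apart. The source names of AKR/J arrays 2 and 3 give ZT 0, against ZT 6 in their titles and in the study's design. Both were kept as ZT 6 controls, and counts without them are given below.

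Inbred strains are fixed for different alleles, so a difference between them can lie in a gene's own regulatory sequence, in its transcript, in its copy number or in a regulator elsewhere. DBA/2J and AKR/J carry different haplotypes of the major histocompatibility complex (MHC), whose class I and class II proteins present peptides to T cells. Interferon-stimulated genes are a family of antiviral genes that cells switch on together after interferon binds its receptor, and they are kept low in a healthy brain. A probe set is a group of short probes for one transcript, made from one reference sequence, so it reads the amount of matching RNA and can also respond to a sequence change under a probe.

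The 6 arrays were alike. Correlations between arrays of different strains lay between 0.987 and 0.992, and those within either group between 0.993 and 0.997. Beta-actin is read near both ends of its transcript as a gauge of RNA integrity, and the 3′ minus 5′ gap was 0.98 on the log2 scale on DBA/2J array 3 and 0.59 to 0.71 on the other 5. Clock genes, many of which follow the time of day in brain, were set side by side on the AKR/J arrays of conflicting label. Over 21 of them, the mean of arrays 2 and 3 lay a median of 0.09 from array 1, and the largest gap was 0.35, for Bhlhe41. It was -0.29 for Per1 and -0.26 for Per2. All arrays of the study are titled ZT 6, so the size of a change from ZT 0 to ZT 6 was not measured. These gaps therefore cannot tell the 2 labels apart. As a check of the labelled tissue, neuronal markers were bright on all 6 arrays, with a mean log2 value over 12 genes of 10.66 in DBA/2J and 10.70 to 10.74 in AKR/J.

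Of the 45037 probe sets, 714 passed the test (1.59%), which was limma's moderated test with an adjusted p under 0.05. DBA/2J was higher for 345 (0.766%) and lower for 369 (0.819%), so neither strain dominated. The difference was at least 2-fold for 250 of them (126 higher and 124 lower) and at least 8-fold for 30. Among genes, each read from its brightest probe set, 281 of 18193 passed (1.54%), 139 higher (0.764%) and 142 lower (0.781%) in DBA/2J. The median difference over all genes was 0.00 (0.0047). The smallest difference that passed was 0.30 and the median 0.83 on the log2 scale. All 714 had no overlap between the 3 DBA/2J and 3 AKR/J arrays, a property that 16.8% of all probe sets had. Without AKR/J arrays 2 and 3 the counts were 271 probe sets and 90 genes. Of 76 calls of named genes and their probe sets, 34 ended without AKR/J arrays 2 and 3, when AKR/J array 1 stands alone, and 0 of these changed sign. Without DBA/2J array 3 the counts were 545 and 215. The test took its spread from all 18 brain arrays, so the counts also depend on arrays outside this comparison. A fit of the 6 control arrays alone gave 842 and 314. Leaving out 3 sleep-deprived arrays of narrow spread gave 1291 and 528.

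**Figure D1:**
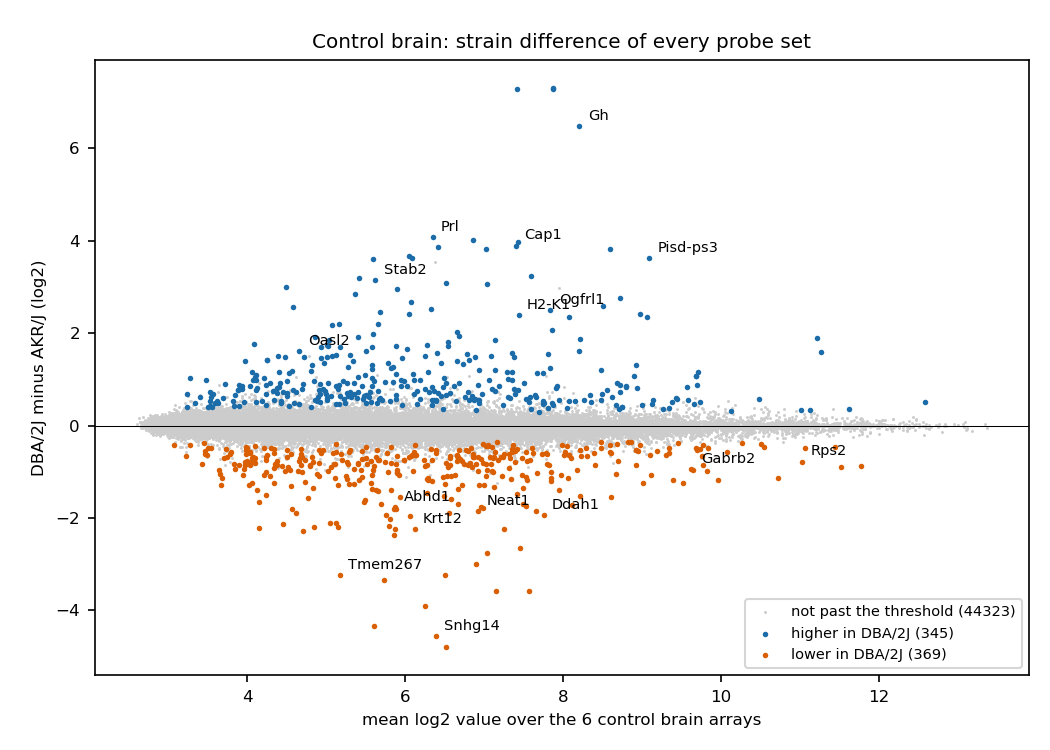
Strain difference (DBA/2J minus AKR/J, log2) of each of 45037 probe sets in control brain against its mean log2 value over the 6 arrays. Blue points (345) were higher and orange points (369) lower in DBA/2J at an adjusted p under 0.05, and named genes are marked at the probe set that represents them. Calls lie at every brightness and on both sides of 0.

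The genes with the largest excess in DBA/2J fell into hormone genes, MHC and interferon genes, and genes of no common role. This ranking, and that of genes lower in DBA/2J, left out genes with called probe sets in both directions. H2-D1 (1.88) was left out for that reason. Cap1, which encodes a protein that binds actin monomers and helps filaments turn over, stood at 9.37, 9.49 and 9.19 in DBA/2J and at 5.45, 5.38 and 5.52 in AKR/J. The 3 arrays of each strain lay close together and far from those of the other. The difference was 3.90 ± 0.13 (SE, n = 3 arrays per strain, adjusted p = 1.610e-11), or 14.9-fold, and the second probe set of Cap1 gave 4.01. C57BL/6J stood at 5.24 to 5.49, beside AKR/J.

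Pisd-ps3, a pseudogene of the enzyme that makes phosphatidylethanolamine in mitochondria, read 10.77, 10.94 and 10.98 in DBA/2J and 7.32, 7.30 and 7.20 in AKR/J. The difference was 3.62 ± 0.14 (adjusted p = 8.566e-11), and all 5 of its probe sets were higher in DBA/2J, by 1.16 to 3.82. The parent gene's transcripts can share sequence with it, so the source of this signal within the family is uncertain. Stab2, a scavenger receptor that takes up hyaluronan, read 7.16, 7.47 and 6.95 against 3.83, 4.13 and 4.19, a difference of 3.14 ± 0.18. Its AKR/J values are in the low range of these arrays, as are those of C57BL/6J, at 4.19 to 4.41.

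Rbm45, an RNA-binding protein of the developing nervous system, was at 7.30, 7.29 and 7.16 in DBA/2J and at 4.81, 4.76 and 4.94 in AKR/J, and differed by 2.41 ± 0.11. Pam, the enzyme that adds the terminal amide to many neuropeptides, was at 5.97, 5.93 and 5.76 against 4.33, 4.36 and 4.35, and differed by 1.54 ± 0.11. For both genes C57BL/6J lay beside AKR/J, at 4.94 to 5.11 and at 4.53 to 4.70. For 4 further genes it was AKR/J that stood apart from both other strains. Akr1e1, an aldo-keto reductase, read 7.31, 7.06 and 7.09 in DBA/2J and 5.48, 5.30 and 5.45 in AKR/J, while C57BL/6J read 7.05 to 7.14.

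The other 3 were Ogfrl1, Pcdhb9 and Ggps1. Pcdhb9, a clustered protocadherin of the neuronal surface, differed by 2.19 ± 0.32 (adjusted p = 6.956e-04). Ggps1, which makes the geranylgeranyl group attached to small GTPases, differed by 1.71 ± 0.26 (adjusted p = 8.683e-04). A second probe set of Ggps1 gave 1.41 and passed, and the other 2, at -0.18 and -0.33, did not. Ogfrl1 differed by 2.51 ± 0.12 in the probe set that represents it and not in its other 2, as described below. Across the 15 genes with the largest excess, the C57BL/6J mean was nearer AKR/J for 6 and nearer DBA/2J for 9. Over all 714 probe sets it was nearer AKR/J for 377 (52.8%). Pcdhb9 no longer passed without AKR/J arrays 2 and 3 (adjusted p = 0.10).

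Among genes lower in DBA/2J, the widest gap was that of Snhg14, a long noncoding RNA of the imprinted region that also holds Ube3a, which it overlaps in antisense. It read 4.28, 4.16 and 3.89 in DBA/2J and 8.76, 8.60 and 8.61 in AKR/J, with C57BL/6J at 8.59 to 8.83. The DBA/2J values sat in the low range of the arrays and the other 2 strains did not overlap them. The difference was -4.55 ± 0.26 (adjusted p = 5.799e-09), or 23.4-fold. Its other 2 probe sets, at 3.09 to 5.07 on all 6 arrays, differed by 0.02 and 0.43 and did not pass.

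Tmem267, a membrane protein gene, read 3.30, 3.62 and 3.74 in DBA/2J and 6.93, 6.60 and 6.82 in AKR/J, a difference of -3.23 ± 0.22. Neat1, the long noncoding RNA around which nuclear paraspeckles form, read 5.83, 6.13 and 6.04 against 7.71, 7.93 and 7.93. It differed by -1.86 ± 0.14 (adjusted p = 4.206e-07) in 1 probe set, and its dimmer probe set, at 5.004 to 5.48, differed by 0.27 and did not pass. For Tmem267 and Neat1 all 3 DBA/2J arrays lay below all AKR/J and C57BL/6J arrays. Acer3, an alkaline ceramidase that breaks down ceramides, read 3.98, 3.44 and 3.82 against 6.25, 5.64 and 5.91 and differed by -2.19 ± 0.21.

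Ddah1, which breaks down methylated arginines that inhibit nitric oxide synthase, read 7.06, 6.92 and 6.38 in DBA/2J and 8.89, 8.59 and 8.69 in AKR/J. It differed by -1.94 ± 0.21 (adjusted p = 2.474e-05). A second probe set differed by -1.27 and also passed, and the other 3, at -0.44, -0.42 and 0.04, did not. Krt12, a keratin known from the cornea, differed by -2.23 ± 0.20 and by -2.36 in its 2 probe sets. Sbsn, a secreted protein known from skin, differed by -1.96 ± 0.14. Mtm1, the phosphoinositide phosphatase myotubularin, differed by -1.70 ± 0.21, and Nek2, a kinase of the centrosome, by -1.34 ± 0.24.

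Abhd1, an alpha/beta-hydrolase, read 4.92, 4.99 and 5.05 in DBA/2J and 6.92, 6.75 and 6.60 in AKR/J, with C57BL/6J at 4.90 to 5.47, so AKR/J was the strain that stood apart. Gm13306, a gene of a chemokine cluster with near-identical copies, read 4.04, 4.19 and 3.98 against 5.40, 7.12 and 6.01, and its AKR/J arrays were widely spread. Its copies may share probes, so this reading is uncertain. The remaining 4 of the 15 were 2010315B03Rik (-2.12), 1500011B03Rik (-1.53), 4833420G17Rik (-1.39) and the zinc finger gene Zfp40 (-1.38). The second probe set of 1500011B03Rik differed by -0.16 and did not pass. Zfp40 and Nek2 no longer passed without AKR/J arrays 2 and 3, at adjusted p of 0.20 and 0.22. For 12 of the 15 genes the C57BL/6J mean was nearer AKR/J.

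**Figure D2:**
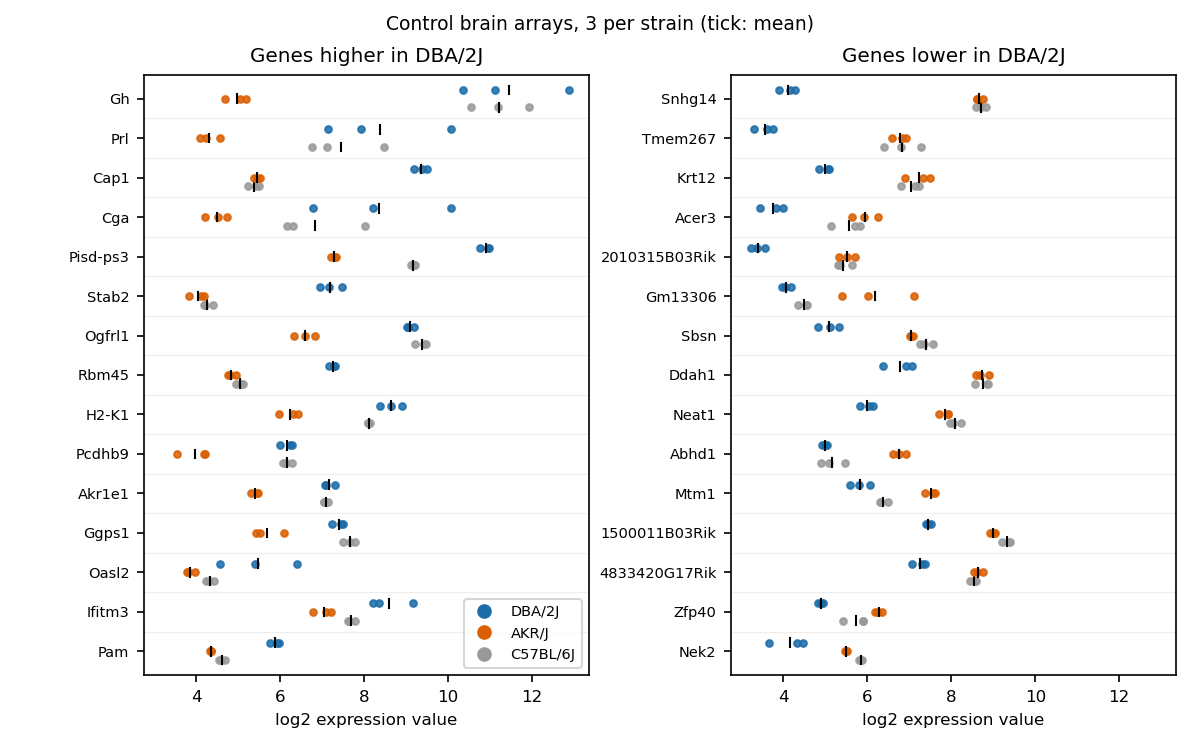
Log2 expression value of the 15 genes with the largest excess (left) and the 15 with the largest deficit (right) in DBA/2J among those past the threshold, on each control brain array of DBA/2J (blue), AKR/J (orange) and C57BL/6J (grey). Points are arrays, 3 per strain, and ticks are means. Genes with called probe sets in both directions were left out. The DBA/2J and AKR/J points do not overlap for any gene, which was a condition of the choice. The DBA/2J points of Gh, Prl, Cga and Oasl2 are widely spread.

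Gh, Prl and Cga encode growth hormone, prolactin and the alpha subunit shared by the pituitary glycoprotein hormones, all products of the anterior pituitary gland. Gh read 12.87, 10.36 and 11.11 in DBA/2J and 5.03, 5.18 and 4.68 in AKR/J. Prl read 10.08, 7.15 and 7.93 against 4.24, 4.57 and 4.10, and Cga 10.06, 6.79 and 8.21 against 4.20, 4.73 and 4.52. The order of the DBA/2J arrays was the same for the 3 genes, with array 1 highest and array 2 lowest, and no array overlapped AKR/J.

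The differences were 6.48 ± 1.37 for Gh (adjusted p = 0.018), 4.08 ± 0.97 for Prl (adjusted p = 0.042) and 3.87 ± 0.88 for Cga (adjusted p = 0.029). These errors and tests use the spread shared by the 6 brain groups, which were unequally spread. The SD of Gh was 1.29 in DBA/2J controls, 0.25 in AKR/J controls and 4.45 in sleep-deprived C57BL/6J. In a fit of the 6 control arrays alone the same 3 genes passed. The other 3 probe sets of Gh gave 7.29 to 7.31. Of 8 measured pituitary markers, 3 passed as higher, against 0.764% of all genes, and 0 as lower, and the median difference was 1.93, against 0.00 over all genes. Pomc, the precursor of corticotropin, read 11.09, 7.75 and 9.44 against 6.40, 6.47 and 6.50 and did not pass (adjusted p = 0.10). Lhb, Fshb and Tshb, the beta subunits of the same hormone family, differed by 0.53, 0.88 and 0.40 and did not pass. The summed linear value of the 8 markers was 1901 to 11976 on the DBA/2J controls and 247 to 298 on the AKR/J controls.

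After sleep deprivation limma called 0 of the 8 markers, against 1.54% of all genes, and 0 had an unadjusted p under 0.05. Gh then read 9.83 to 11.41 on the AKR/J sleep-deprived arrays and 10.92 to 12.36 on those of DBA/2J, which overlapped, and the difference was 0.67. Prl and Cga differed by 1.02 and 1.33. The summed value of the markers was then 1258 to 3653 in AKR/J. C57BL/6J had 2094 to 5277 in controls and 4399, 6546 and 215 on its sleep-deprived arrays 1, 2 and 3, so the third of these, where Gh read 4.24, lay below the AKR/J controls. The test of the change in the strain difference did not pass, with an adjusted p of 1.0 for all 3 genes and unadjusted p of 0.0083 for Gh, 0.0398 for Prl and 0.0571 for Cga. The amount of pituitary tissue in each pool was not recorded in the labels, and its part in these values was not tested. Calls of Gh, Prl and Cga ended when any one of DBA/2J arrays 1 and 3 or the 3 AKR/J arrays was left out, with adjusted p between 0.057 and 0.11 for Gh, 0.098 and 0.23 for Prl, and 0.080 and 0.18 for Cga.

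The MHC class I genes H2-K1 and H2-D1 were higher in DBA/2J. H2-K1 read 8.89, 8.63 and 8.38 in DBA/2J and 5.97, 6.31 and 6.43 in AKR/J, a difference of 2.40 ± 0.15 (adjusted p = 2.254e-08), and C57BL/6J read 8.09 to 8.14. H2-D1 read 9.39, 9.08 and 8.99 against 7.21, 7.21 and 7.41, a difference of 1.88 ± 0.12 (adjusted p = 4.121e-08). H2-Ab1, a class II beta chain, read 5.55, 5.43 and 5.48 against 4.88, 5.11 and 5.002, and differed by 0.49 ± 0.08 (adjusted p = 0.0027). For all 3 genes the C57BL/6J arrays lay above the AKR/J arrays.

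Of 26 measured genes of MHC and antigen presentation, these 3 passed as higher and 0 as lower, with a median of 0.20, against 1.54% of all genes called and a median of 0.00 over all genes. B2m, the light chain of class I molecules, read 10.41, 9.76 and 9.71 against 9.41, 9.32 and 9.39 and did not pass (difference 0.59, adjusted p = 0.11). The peptide transporter Tap1 (0.35) and the class II invariant chain Cd74 (0.30) did not pass either. The class I genes are nearly identical to each other and differ between haplotypes, so their probe sets are uncertain as measures of one gene. Of 9 probe sets named for H2-D1, 7 were higher by 0.97 to 3.68, 1 was lower, at -2.29 ± 0.18, and 1, at -0.05, did not pass. On the DBA/2J arrays the lower one read 3.49, 3.37 and 3.81, on the AKR/J arrays it read 6.19, 5.62 and 5.74, and on those of C57BL/6J 3.29 to 3.61.

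Of 33 measured interferon-stimulated genes, 7 passed as higher in DBA/2J and 0 as lower, against 0.764% of all genes called as higher. The list's median was 0.46, and 31 members were above 0. Oasl2, an antiviral protein of the oligoadenylate synthetase family, read 6.41, 5.40 and 4.58 in DBA/2J and 3.77, 3.81 and 3.98 in AKR/J. The difference was 1.61 ± 0.30 (adjusted p = 0.0068). Rtp4, a receptor chaperone induced by interferon, read 6.54, 5.61 and 4.86 against 4.27, 4.01 and 4.32, a difference of 1.47 ± 0.31 (adjusted p = 0.016). In both genes DBA/2J array 1 was highest and array 3 lowest, and all were above AKR/J.

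Ifit3 and Ifit1 encode proteins that bind foreign RNA and block its translation. Ifit3 read 8.10, 7.29 and 6.82 against 6.02, 6.01 and 6.17, a difference of 1.34 ± 0.22 (adjusted p = 0.0022). Ifit1 read 5.37, 4.69 and 4.58 against 3.79, 4.15 and 3.91, a difference of 0.93. The guanylate-binding proteins are GTPases that attack membranes around pathogens. Gbp7 differed by 0.98 ± 0.18 (adjusted p = 0.0054), Gbp2 by 0.87 and Gbp3 by 0.82.

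Summed over the list, the linear value was 2035, 1496 and 1199 on DBA/2J arrays 1, 2 and 3 and 999 to 1040 on the AKR/J arrays. The mean log2 value of the list was 4.57 to 4.67 on the C57BL/6J arrays and 4.73 to 5.21 on those of DBA/2J, so the DBA/2J arrays were above both other strains. DBA/2J array 3, the lowest of the 3, was also the array with the larger beta-actin gap, whose part in this order was not tested. Members that did not pass included Usp18 (0.59), Irf7 (0.46) and Stat2 (-0.08). Stat2 transmits the interferon signal to the nucleus. Xaf1, at -0.37, was the member with the lowest difference. The count was 10 without DBA/2J array 3, between 5 and 10 without any single array, and 0 without AKR/J arrays 2 and 3 (adjusted p = 0.12 for Ifit3, 0.20 for Oasl2 and 0.44 for Gbp7). The call of Rtp4 ended without DBA/2J array 1 or 2 or any one AKR/J array (adjusted p between 0.051 and 0.085). In a fit of the 6 control arrays alone, 5 of the list passed, and the calls of Oasl2 and Rtp4 ended. The SD of Oasl2 was 0.92 in the DBA/2J controls and 0.11 in the AKR/J controls.

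A further 10 genes known to respond to interferon, which were picked after their values were seen, were called as higher. They included the immunity-related GTPases Igtp (0.94), Iigp1 (0.86), Irgm2 (0.78) and Irgm1 (0.59), which act at the membranes around intracellular parasites. Ifitm3, which blocks entry of enveloped viruses, read 9.17, 8.35 and 8.22 in DBA/2J and 7.22, 6.79 and 7.08 in AKR/J and differed by 1.55 ± 0.22 (adjusted p = 4.163e-04, or 0.094 without AKR/J arrays 2 and 3). The others were Ifi30 (0.57), Rnf213 (0.44), Casp1 (0.42), Ifit1bl1 (0.42) and Wars (0.40).

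Promoters of 4 of the called interferon-stimulated genes are shown because those genes lie in 2 gene clusters and were called together. They cover 250 bases before to 50 bases after the start of the gene in RefSeq on GRCm38.p6, whose reference strain is C57BL/6J and neither of the strains compared. Capitals mark matches to GAAA, 2 bases of any kind and GAAA again, the core letters of the element that interferon-activated factors bind. Both strands were searched, and all matches shown read TTTC, 2 bases and TTTC on the printed strand. Ifit1 is at chr19:34640639-34640938, Ifit3 at chr19:34583279-34583578, Gbp2 at chr3:142620413-142620712 and Gbp7 at chr3:142530086-142530385, all on the + strand.

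Ifit1: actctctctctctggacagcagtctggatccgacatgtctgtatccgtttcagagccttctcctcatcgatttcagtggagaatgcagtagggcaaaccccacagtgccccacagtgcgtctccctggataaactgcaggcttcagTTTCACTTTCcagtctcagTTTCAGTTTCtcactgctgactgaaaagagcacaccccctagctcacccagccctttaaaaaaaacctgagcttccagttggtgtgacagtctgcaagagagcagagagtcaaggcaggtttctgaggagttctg
Ifit3: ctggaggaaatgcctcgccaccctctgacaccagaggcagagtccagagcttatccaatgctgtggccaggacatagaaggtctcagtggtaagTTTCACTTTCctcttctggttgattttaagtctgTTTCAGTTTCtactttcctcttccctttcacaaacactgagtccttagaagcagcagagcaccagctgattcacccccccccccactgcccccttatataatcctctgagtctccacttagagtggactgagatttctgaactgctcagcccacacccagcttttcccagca
Gbp2: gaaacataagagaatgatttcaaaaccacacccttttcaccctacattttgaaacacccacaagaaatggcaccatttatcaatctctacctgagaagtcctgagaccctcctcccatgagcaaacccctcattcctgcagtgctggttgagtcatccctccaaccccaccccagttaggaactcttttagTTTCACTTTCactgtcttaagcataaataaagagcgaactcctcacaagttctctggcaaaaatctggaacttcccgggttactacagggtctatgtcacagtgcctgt
Gbp7: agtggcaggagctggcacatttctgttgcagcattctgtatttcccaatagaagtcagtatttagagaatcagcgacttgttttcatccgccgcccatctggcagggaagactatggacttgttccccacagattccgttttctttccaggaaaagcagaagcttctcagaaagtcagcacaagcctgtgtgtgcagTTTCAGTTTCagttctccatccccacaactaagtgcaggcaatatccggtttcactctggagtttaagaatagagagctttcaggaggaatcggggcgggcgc

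Ifit1 holds matches that begin 104 and 85 bases before the start and Ifit3 at 156 and 122 bases, while Gbp2 and Gbp7 hold 1 each, at 59 and 53 bases. Of the 7 called genes of the list, 6 had a promoter entry and 5 of these held a match, the exception being Oasl2. Over the measured list 16 of 24 genes with an entry held one, against 1131 of 32851 promoters of the same length (3.44%). The list was made up of genes known to respond to interferon, so this share describes the list and not the strains.

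In the sleep-deprived brain limma called 0 of the 33 genes, against 1.54% of all genes. Of the 33, 5 had an unadjusted p under 0.05, and the median difference was 0.14. Oasl2 read 4.60, 4.64 and 3.85 in DBA/2J and 3.65, 3.64 and 3.97 in AKR/J after sleep deprivation, which overlapped. The change in the strain difference was -0.99 for Oasl2 (unadjusted p = 0.034, adjusted p = 1.0) and -1.001 for Ifit3 (unadjusted p = 0.0058, adjusted p = 1.0), so neither was called as different from the control difference. In control liver, where 3.4% of all genes were called as higher, 23 of the 33 were called as higher in DBA/2J and 0 as lower, with a median of 1.06.

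**Figure D3:**
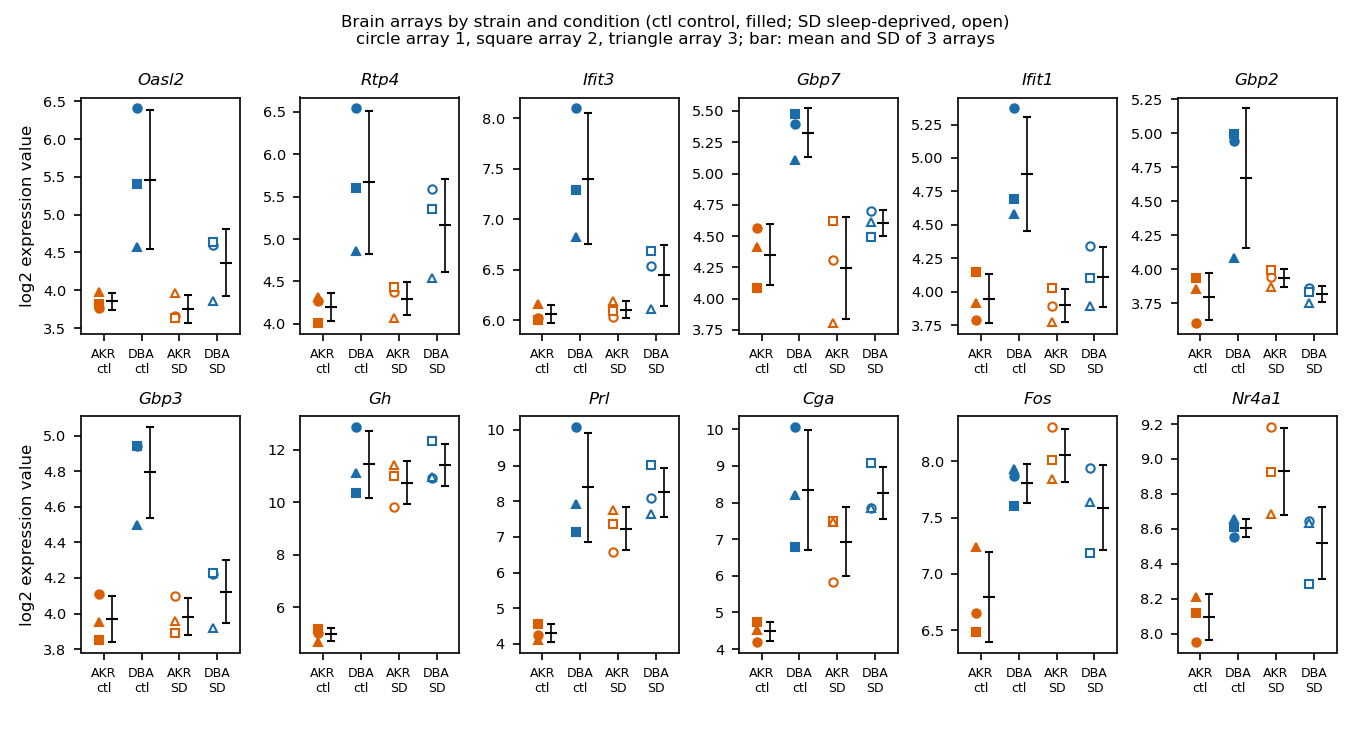
Log2 expression value of 7 interferon-stimulated genes, 3 pituitary hormone genes and 2 activity-regulated genes on each brain array of AKR/J (orange) and DBA/2J (blue), for controls (filled) and sleep-deprived pools (open), with the mean and SD of 3 arrays. Circles, squares and triangles are arrays 1, 2 and 3. All 3 control DBA/2J arrays lie above all control AKR/J arrays for each gene, and the sleep-deprived arrays overlap except for Rtp4, Gbp2, Cga and Nr4a1.

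Fos and Nr4a1, transcription factor genes switched on within minutes by neuronal activity, were higher in the DBA/2J controls. Fos read 7.87, 7.61 and 7.93 in DBA/2J and 6.66, 6.48 and 7.24 in AKR/J, a difference of 1.01 ± 0.20 (adjusted p = 0.010). Nr4a1 read 8.55, 8.61 and 8.66 against 7.95, 8.12 and 8.21, a difference of 0.51 ± 0.12 (adjusted p = 0.044). In the sleep-deprived groups the differences had the opposite sign, at -0.46 and -0.41, and neither passed.

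The change in the strain difference was -1.47 for Fos (unadjusted p = 7.454e-05) and -0.92 for Nr4a1 (unadjusted p = 6.230e-05), and both had an adjusted p of 0.84. These 2 were the only called genes among 30 activity-regulated ones, against 0.764% of all genes called as higher. The list's median was 0.17, against 0.00 over all genes, with 22 above 0. Arc, a synaptic protein gene of the same class, differed by 0.53 (adjusted p = 0.12) and Egr1 by 0.38 (adjusted p = 0.074). The call of Nr4a1 ended without any one of the 6 arrays (adjusted p between 0.067 and 0.24). That of Fos ended without DBA/2J array 1 or 3 or AKR/J array 1 or 2 (adjusted p between 0.054 and 0.074).

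For the lists of receptors, channels, housekeeping genes and cell markers that follow, the shares of all genes called were 0.764% as higher and 0.781% as lower, and the median over all genes was 0.00. Of 36 potassium channel genes, 3 passed as higher and 0 as lower, with a median of -0.05, and 16 were above 0. Kcnj16, an inwardly rectifying channel subunit, read 6.65, 6.32 and 6.42 in DBA/2J and 5.17, 4.91 and 5.21 in AKR/J, a difference of 1.37 ± 0.17 (adjusted p = 1.150e-04). Kcnma1, the pore of the large-conductance calcium-activated channel, read 8.72, 8.62 and 8.04 against 7.14, 7.41 and 7.09, a difference of 1.25 ± 0.24 (adjusted p = 0.0069). Kcnv1, a silent subunit that modifies other channels, differed by 0.71 ± 0.10 (adjusted p = 3.822e-04). The Kcnma1 call ended without DBA/2J array 1 (adjusted p = 0.053), and the other 2 kept theirs without any single array. Without AKR/J arrays 2 and 3 the calls of Kcnma1 (adjusted p = 0.18) and Kcnv1 (adjusted p = 0.10) ended.

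Scn2b and Scn4b, beta subunits of voltage-gated sodium channels, are neighbouring genes and differed in opposite directions. Scn4b read 8.25, 8.19 and 8.50 in DBA/2J and 9.13, 8.94 and 9.18 in AKR/J, a difference of -0.77 ± 0.11 (adjusted p = 4.803e-04). Scn2b read 9.83, 9.87 and 9.88 against 9.42, 9.20 and 9.32, a difference of 0.55 ± 0.08 (adjusted p = 7.474e-04). They were the 2 called among 26 sodium and calcium channel genes. Without AKR/J arrays 2 and 3 the call of Scn2b ended (adjusted p = 0.17) and that of Scn4b did not (adjusted p = 0.027).

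In the GABA system, 2 of 17 genes passed, both lower in DBA/2J, and the list's median was -0.01. Gabrb2, a subunit of the fast inhibitory GABA-A receptor, read 9.46, 9.10 and 8.94 in DBA/2J and 10.19, 10.06 and 10.11 in AKR/J. The difference was -0.95 ± 0.15 (adjusted p = 0.0016, or 0.077 without AKR/J arrays 2 and 3). Gabbr1, a subunit of the slow GABA-B receptor, differed by -0.39 ± 0.08 (adjusted p = 0.012).

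One of 27 glutamate receptor and scaffold genes passed, Shank3, a scaffold of the postsynaptic density, at -0.35 ± 0.08 (adjusted p = 0.030). One of 32 monoamine and acetylcholine genes passed, the muscarinic receptor Chrm3, at -0.60 ± 0.13 (adjusted p = 0.021). The calls of Gabbr1, Shank3 and Chrm3 ended when 4, 6 and 3 of the 6 arrays, respectively, were left out one at a time. The adjusted p was then between 0.052 and 0.093 for Gabbr1 (DBA/2J 1 and 3, AKR/J 1 and 2) and between 0.077 and 0.15 for Shank3 (any array). It was between 0.070 and 0.15 for Chrm3 (DBA/2J 3, AKR/J 2 and 3).

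Among housekeeping lists, Rps6 and Rps2, proteins of the small ribosomal subunit, were the 2 of 27 ribosomal genes that passed. Rps6 read 5.38, 5.44 and 5.35 in DBA/2J and 6.43, 6.27 and 6.47 in AKR/J, a difference of -1.004 ± 0.13 (adjusted p = 1.511e-04), and Rps2 differed by -0.78 ± 0.08 (adjusted p = 7.674e-06). Ribosomal protein genes have many processed pseudogenes, so their probe sets can read related transcripts. Psmb6, a catalytic subunit, was the 1 of 31 proteasome genes that passed, at -0.85 ± 0.09 (adjusted p = 2.490e-05). The medians of the ribosomal and proteasome lists were -0.01 and -0.04.

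In the list of 37 glutathione and detoxification genes, 1 passed in each direction. Mt3, the brain metallothionein, which binds zinc, was higher by 0.58 ± 0.12 (adjusted p = 0.020), and Gclm, a subunit of the enzyme that starts glutathione synthesis, was lower by -0.50 ± 0.11 (adjusted p = 0.028). The Mt3 call ended without DBA/2J array 1 or 3 or AKR/J array 2 or 3 (adjusted p between 0.053 and 0.14), and that of Gclm without DBA/2J array 2 or 3 or AKR/J array 1 or 2 (adjusted p between 0.097 and 0.19). Limma called 0 genes in the lists of clock genes, heat shock proteins, endoplasmic reticulum chaperones, neuropeptides, complement, the Ifi200 family, heme and iron, pigmentation, lipid and sterol metabolism, and the respiratory chain. Among their 232 measured genes, 22 had an unadjusted p under 0.05, as did 3406 of all 45037 probe sets. The medians of these 10 lists lay between -0.05 and 0.14.

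Among markers of brain cell types, single genes of neurons, astrocytes and microglia passed. Of 12 neuronal markers 1 passed, the vesicular glutamate transporter Slc17a7, which read 8.81, 8.87 and 8.67 in DBA/2J and 9.42, 9.40 and 9.43 in AKR/J and differed by -0.63 ± 0.11 (adjusted p = 0.0036, or 0.19 without AKR/J arrays 2 and 3). Of 12 astrocyte markers 1 passed, glutamine synthetase Glul, at -0.47 ± 0.10 (adjusted p = 0.016). The list medians were -0.03 and -0.0033. Of 11 microglial markers, P2ry12, a purine receptor of resting microglia, was lower by -0.91 ± 0.20 (adjusted p = 0.021), and Ctss, the lysosomal protease cathepsin S, was higher by 0.60 ± 0.12 (adjusted p = 0.010). The microglial median was -0.17, and 4 of the 11 were above 0. The 2 groups of arrays did not overlap for 4 of 12 neuronal, 7 of 12 astrocyte and 6 of 11 microglial markers, against 17.5% of all genes.

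Limma called 0 markers of oligodendrocytes, endothelium, choroid plexus, red blood cells, lymphocytes and hepatocytes, with medians of -0.07 to 0.14. An unadjusted p under 0.05 was reached by 1 of these 54 markers and by 3406 of all 45037 probe sets. The calls of Glul (without DBA/2J 1 or 2 or AKR/J 1 or 3), P2ry12 (without any array except AKR/J 2) and Ctss (without DBA/2J 1 or AKR/J 2 or 3) ended, with adjusted p of at most 0.11, 0.11 and 0.078.

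Several genes known to vary among inbred strains did not pass in this pair. Glo1, which clears methylglyoxal, read 10.25, 10.15 and 9.85 in DBA/2J and 10.12, 10.17 and 10.22 in AKR/J, against 8.61 to 9.22 in C57BL/6J. The difference was -0.09, with a 95% interval of -0.37 to 0.19. Alad, an enzyme of heme synthesis, differed by -0.10 (interval -0.29 to 0.09), and Kcnj9, a G-protein-gated potassium channel, by 0.02 (interval -0.24 to 0.29). Gabra2, a GABA-A receptor subunit, differed by 0.07 (interval -0.50 to 0.64). In Alad, Kcnj9 and Gabra2, as in Glo1, every C57BL/6J array lay below every DBA/2J and AKR/J array.

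Homer1, a scaffold of postsynaptic glutamate receptors, differed by -0.05 (interval -0.26 to 0.16), and none of its 6 probe sets passed. Tyrp1 and Gpnmb, melanosome genes in which DBA/2J carries mutations, differed by 0.19 and -0.14 and did not pass. Tyrp1 read 3.28 to 3.73 on the 6 arrays, below the median of 4.77 over the brain arrays, so its small difference says little. Myo5a, the myosin that carries pigment granules and is mutant in the dilute coat of DBA/2J, differed by -0.35 (adjusted p = 0.17). Mpdz, a synaptic scaffold, differed by -0.52 (adjusted p = 0.24). For both, the 3 DBA/2J arrays lay below the 3 AKR/J arrays, as they did for Alad, Thy1 and Dbp. The 2 groups did not overlap for 17.5% of all genes. Thy1, Hc, Ahr, Dbp, Per1 and Per2 differed by -0.17 to 0.29 and did not pass. Hc was as dim as Tyrp1, at 3.52 to 3.87 on the 6 arrays.

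Probe sets of one gene did not always agree. Among the 281 called genes, 156 had more than 1 probe set. Another probe set passed in the same direction in 41 of these, another passed in the opposite direction in 8, and no other passed in 107. Over all genes, 12 had probe sets called in both directions. Pdxdc1, a decarboxylase-like gene, held the widest gap. One of its probe sets read 7.59, 7.25 and 7.37 in DBA/2J and 3.65, 4.06 and 3.67 in AKR/J (3.61 ± 0.13), and another read 4.98, 4.72 and 4.99 against 8.05, 8.12 and 8.19 (-3.23 ± 0.26). Which of these follows the gene's total transcript cannot be told from the values.

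Bcl11b, a transcription factor of cortical and striatal projection neurons, differed by -2.99 ± 0.18 in 1 probe set and by 0.47 ± 0.10, -0.36 and 0.09 in its other 3, of which the 0.47 passed. That call ended without any array except AKR/J array 1 (adjusted p between 0.069 and 0.16). Camk2n1, an inhibitor of the synaptic kinase CaMKII, read 12.85, 12.83 and 12.85 in DBA/2J and 12.32, 12.35 and 12.34 in AKR/J in its brighter probe set, a difference of 0.51 ± 0.08. Its dimmer probe set gave -2.64 ± 0.12. Sdc4, a heparan sulfate proteoglycan, differed by 1.28 ± 0.18 and by -1.80 ± 0.26. Without AKR/J arrays 2 and 3 the call of the brighter Camk2n1 probe set (adjusted p = 0.092) and both of Sdc4 (0.067 and 0.061) ended.

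Genes with the largest differences were among those with 1 deviating probe set. Ogfrl1 gave 2.51 in 1 probe set and -0.01 and -0.74 in the other 2, which did not pass. Acer3 gave -2.19 in 1 of 4, the others lying between -0.30 and -0.07. Probe sequences and variants between the strains were not used here, and their part in these readings was not tested.

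**Figure D4:**
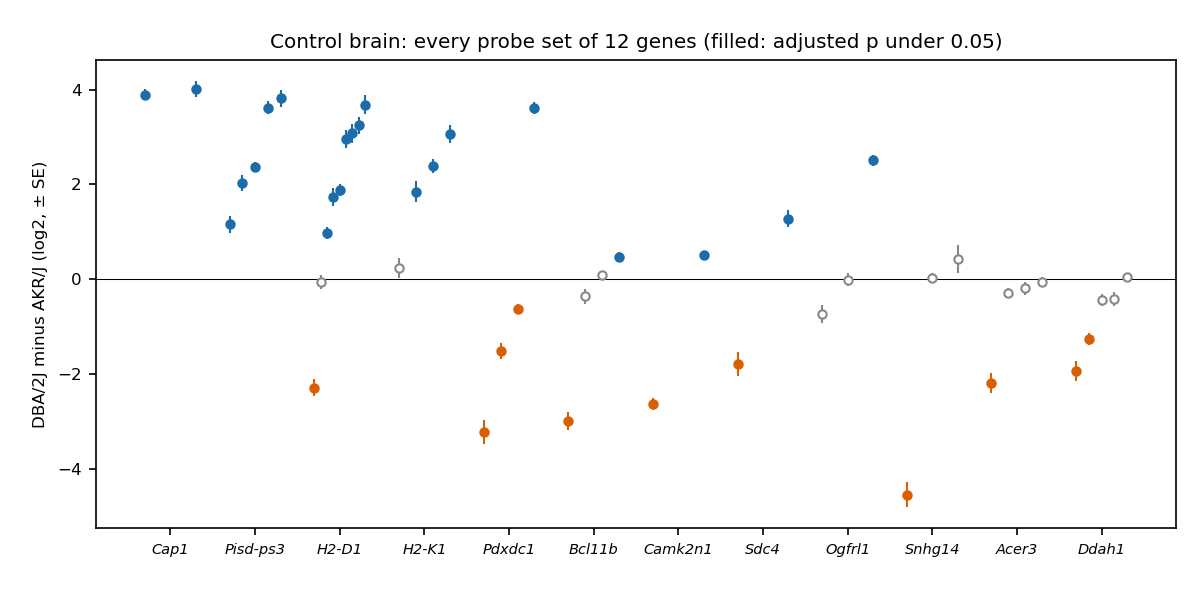
Strain difference in control brain (DBA/2J minus AKR/J, log2, ± SE, n = 3 arrays per strain) of every probe set of 12 genes. Filled points passed at an adjusted p under 0.05 and open points did not. All probe sets of Cap1 and Pisd-ps3 lie above 0, while Pdxdc1, H2-D1, Bcl11b, Camk2n1 and Sdc4 have filled points on both sides of 0.

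Some called genes lay next to each other, though most had no called neighbour. In the gene order of the GRCm38.p6 annotation, 36 of the 539 measured neighbours of called genes were themselves called (6.68%), against 1.55% of all 18145 genes with a position. Both genes were called in 18 neighbouring pairs, with 33 genes in all (11.7% of the 281 called), and 13 of the pairs had the same direction. They included the immune GTPases Igtp and Irgm2, Gbp7 and Gbp3, and Ifit3 and Ifit1bl1. The purine receptors P2ry13 (-0.53) and P2ry12 (-0.91) were both lower. The run of Pomt1 (-1.28), Uck1 (-0.86) and Swi5 (-0.97) was lower too. Pomt1 adds mannose to dystroglycan, Uck1 phosphorylates uridine and Swi5 takes part in recombination repair. Neighbours can share probes where they are copies of each other, as in Gpr137b and Gpr137b-ps.

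The 6 sleep-deprived brain arrays of the same strains, which are separate arrays, gave 704 calls (1.56%), 350 higher (0.777%) and 354 lower (0.786%) in DBA/2J. Both comparisons came from 1 fit and used the same estimate of the spread, so their calls are not independent. Of the 714 control calls, 483 were called there in the same direction, which is 67.6% of the control calls and 68.6% of the sleep-deprived calls, and 0 in the opposite one. The sign agreed for 703 of the 714. The 11 others included Fos, Nr4a1 and Gbp2, and Trim30a, a further interferon-induced gene, in a probe set that does not represent it. Among the 15 genes with the largest deficit in DBA/2J, 13 were called in the same direction, the exceptions being Gm13306 (-1.01) and Zfp40 (-0.73). Among the 15 with the largest excess, 10 were, the exceptions being Gh, Prl, Cga, Oasl2 and Ifitm3.

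The test of the change in the strain difference between conditions, in limma, called 0 of 45037 probe sets at an adjusted p under 0.05. The smallest adjusted p was 0.41, and 1029 had an unadjusted p under 0.05. Cap1 differed by 3.67 after sleep deprivation, Snhg14 by -4.53 and H2-K1 by 2.41, against 3.90, -4.55 and 2.40 in controls.

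In control liver 1898 probe sets were called (4.21%), 1037 higher (2.3%) and 861 lower (1.91%) in DBA/2J. By genes, 1052 were called (5.78%), 619 higher (3.4%) and 433 lower (2.38%). Of the 714 brain calls, 246 were called in liver in the same direction, which is 34.5% of the brain calls and 13.0% of the liver calls, and 13 in the opposite one. The set called in the same direction in control brain, sleep-deprived brain and control liver held 180 probe sets. Cap1 (2.98), Rbm45 (2.06), Akr1e1 (2.77) and H2-K1 (3.35) were higher in liver as well, and Tmem267 (-2.28) and Abhd1 (-3.94) were lower. Snhg14 (-0.10), Neat1 (-0.39), Stab2 (0.18) and Pcdhb9 (0.00) did not pass in liver.

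**Figure D5:**
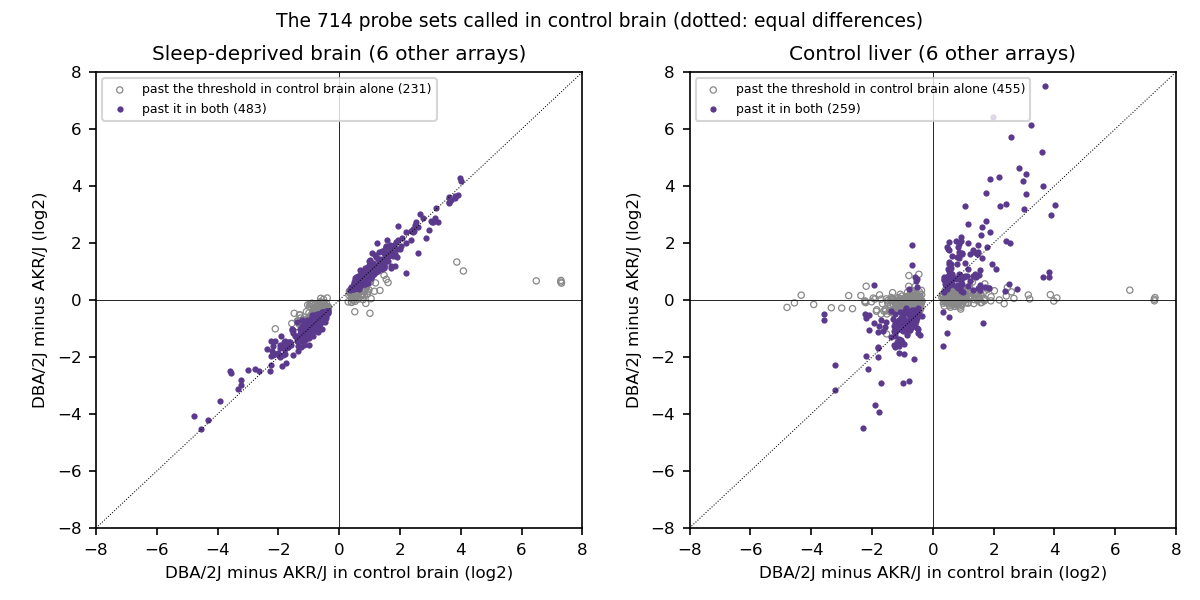
Strain difference (DBA/2J minus AKR/J, log2) of the 714 probe sets called in control brain, against the same difference in sleep-deprived brain (left) and in control liver (right), each from 6 other arrays. Filled points passed in both, 483 on the left and 259 on the right, and the dotted line marks equal differences. On the left 703 of 714 points have the same sign on both axes, the points of Fos, Nr4a1 and Gbp2 being among the 11 that do not, and those of Gh lie far below the line at the right edge. On the right 455 points did not pass in liver.

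A few genes differed in opposite directions in the tissues. The 13 probe sets called so had 11 gene names. The probe set that represents Ddah1 was lower in DBA/2J brain and higher in DBA/2J liver, at 9.29, 9.43 and 9.40 against 8.94, 8.77 and 8.79 in AKR/J (0.54). Its other 4 did not all do so in liver, where 1 was higher (0.83), 1 was lower (-0.71, adjusted p = 0.0125) and 2, at -0.01 and 0.19, did not pass. Ildr2, a membrane protein of lipid handling, read 6.95, 6.93 and 6.69 in DBA/2J brain and 5.09, 5.30 and 5.21 in AKR/J brain (1.66 ± 0.13), in 1 probe set, whose liver difference was -0.79. Its other 2 probe sets were lower in DBA/2J in liver (-2.06 and -2.13) and at -0.62 (adjusted p = 0.0064) and -0.31 (not passed) in brain, so the opposite directions were those of 1 probe set. Tmem51 was at -0.68 in brain and 1.91 in liver. Blvrb, which reduces biliverdin in heme breakdown, was at -0.68 and 1.22, and Plaat3, a phospholipase of adipose tissue, at -0.57 and 0.82.

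In a fit over all 36 arrays, the liver difference minus the brain difference in these probe sets was 2.48 for Ddah1 (adjusted p = 2.664e-08), -2.45 for Ildr2 (adjusted p = 3.530e-11) and 2.60 for Tmem51 (adjusted p = 5.775e-12). The probe sets had been picked by their opposite calls on the same arrays, so this fit adds no separate support. For these 3 genes no DBA/2J array overlapped AKR/J in either tissue. The brain call of Blvrb ended without any array except DBA/2J 1 (adjusted p between 0.052 and 0.14), and that of Plaat3 without DBA/2J array 2 or 3 or AKR/J array 1 or 3 (adjusted p between 0.075 and 0.097).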

How the data were processed

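Whole-brain RNA from pools of 3 mice was measured on Affymetrix arrays. The deposited values are log2 expression values that the authors made with RMA, as the submitters' processing notes say, without a version. RMA subtracts background, equalises array distributions and summarises each probe set, and it compresses differences of dim probe sets. The values carry no detection calls, so low values were not tested against background. Arrays have no depth, and their number limits the precision.

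Limma 3.58.1 in R 4.3.3 was fitted to the 18 brain arrays as 6 group means with moderated variances. P-values are two-sided and adjusted by Benjamini-Hochberg over all 45037 tested probe sets, with 0.05 as the threshold, and 64 control probe sets were left out. Sharing the spread over 6 groups lends degrees of freedom to groups of 3. Liver was fitted apart, and a fit over 36 arrays compared the tissues. Values after ± are standard errors from the spread shared over the 6 groups, and intervals are 95%. An exact permutation test of 3 against 3 arrays cannot go below 0.1.

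Names came from the platform annotation, updated by gene identifier (34945 probe sets with 1 symbol, 34741 matched, 932 with several, 9160 with none). The probe set brightest on average over the brain arrays stands for a gene. Named genes include the 15 largest called differences each way, among genes without array overlap and without called probe sets in opposite directions. They also include up to 4 called members of each of 31 lists and the 5 genes with the widest gap between opposite called probe sets. A fixed set was added, as were the 5 genes with the largest brain difference among those called in opposite directions in brain and liver. Others were picked after their values were seen. The comparison, members and lists were chosen with earlier results of these data known. Promoters came from RefSeq. Soat1 had no probe set with 1 symbol, and Rbm3 was not analysed here.

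The labels do not say which pools share a day. Deviations of same-numbered DBA/2J and AKR/J arrays correlated at 0.11, 0.32 and 0.03. For DBA/2J arrays 1 and 2 these were the highest of their correlations with AKR/J arrays. Numbers were not taken as pairs, and counts with the number as a block are given below. On simulated data with 200 of 45037 probe sets changed, the DBA/2J against AKR/J control brain fit recovered 37.3% at a log2 difference of 0.5, 85.1% at 1 and 98.5% at 2, with 6 false among 153 calls.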

Additional observations from a re-analysis of the deposited data

Results flagged for a closer look

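Some strain differences ran one way on every array of the control brain comparison and the other way on every array of a second comparison, without overlap in either. Between brain and liver these were Ddah1 (-1.94 in brain and 0.54 in liver), Acer3 (-2.19 and 0.48), Ildr2 (1.66 and -0.79), Tmem51 (-0.68 and 1.91), Blvrb (-0.68 and 1.22) and Plaat3 (-0.57 and 0.82). They also included Ociad2 (-0.54 and 0.66), Vwa8 (-0.53 and 0.47), the purine receptor P2ry13 (-0.53 and 0.75), Mpdz (-0.52 and 0.38), Mlycd (0.48 and -1.16), Plekhb1 (0.35 and -1.62) and Lims2 (0.34 and -0.40). Another 2 probe sets without a gene name were at -0.80 and 0.40 and at 0.55 and -0.60. The test of the liver minus brain difference over 36 arrays, in limma, passed for all of these, with an adjusted p of at most 0.017, that of Mpdz. The probe sets were picked for opposite directions on the same arrays, so this outcome adds no separate support. Of the other probe sets of Ddah1 and Ildr2, 1 of Ddah1 (-0.44 in brain and -0.71 in liver) and both of Ildr2 (-0.62 and -2.06, and -0.31 and -2.13) had the same sign in both tissues. Acer3 and Mpdz had not passed in liver alone, and Mpdz had not passed in brain.

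Between control and sleep-deprived brain, Nr4a1 (0.51 in controls and -0.41 after sleep deprivation), Egr1 (0.38 and -0.38) and Gbp2 (0.87 and -0.12) did the same. The test of that change did not pass, with adjusted p of 0.84, 0.84 and 1.0 and unadjusted p of 6.230e-05, 5.057e-05 and 1.110e-03. In Gbp2 the sleep-deprived arrays differed by little, at 3.75 to 3.86 in DBA/2J and 3.87 to 3.996 in AKR/J.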

How the results depend on the processing

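The 714 probe sets and 281 genes were between 510 and 545 and between 201 and 215 when 1 control array was left out. The same ranges were 476 to 715 in sleep-deprived brain, 1373 to 2006 in liver, 378 to 496 for calls shared with sleep-deprived brain, 204 to 234 for calls shared with liver, 0 to 1 for the change between conditions (1 without DBA/2J control array 3), 5 to 10 for interferon genes, 3 for MHC genes and 0 to 4 for pituitary genes. Without the AKR/J arrays of conflicting label, AKR/J array 1 stood alone and was assumed to vary like the other groups. The counts were then 271 probe sets, 90 genes, 726 in liver, 246 and 89 shared, and 0 interferon and 0 pituitary genes.

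Array weights gave 2261 probe sets, 927 genes, 2092 in sleep-deprived brain, 3 for the change between conditions, 1093 and 401 shared, and 19 interferon, 6 MHC and 6 pituitary genes. Requiring 2-fold gave 250, 73, 234 in sleep-deprived brain, 437 in liver, 191 and 68 shared, and 3 interferon genes. Leaving out 3 sleep-deprived brain arrays of narrow spread gave 1291 probe sets, 528 genes and 6 MHC genes, and a filter on dim probe sets left 4 interferon genes. The 3 arrays of narrow spread are in none of the control groups. Leaving them out kept every control difference and changed only the shared spread and its degrees of freedom. The causes of the other changes were not tested, except that the filter tests fewer genes.

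With the replicate number as a block the counts were 680, 265, 651 in sleep-deprived brain, 0 for the change, 1881 in liver, 461 and 237 shared, and 7, 3 and 3 for the lists. By their deviations, DBA/2J arrays 1 and 2 correlated best with the AKR/J array of their own number (0.11 and 0.32). DBA/2J array 3 correlated best with AKR/J array 1 (0.18). Of 76 named calls, 42 passed under every alternative run and 0 reversed. Leaving out 1 control array ended 18. Of 15 named genes that had not passed, Myo5a and Mpdz passed somewhere.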
